A study of Drosophila melanogaster with 10 samples.

Results

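Aminoacyl-tRNA synthetase genes were followed in the eye-antenna discs of Drosophila melanogaster larvae, sacs of epithelium from which the eye, the antenna and part of the head of the adult develop. Members were the genes whose single annotated symbol is built from amino acid codes followed by RS, with the suffix -m for the mitochondrial enzymes. This gave 30 genes of 11982 in the annotation, 16 cytosolic and 14 mitochondrial. Where a gene had several probe sets, the brightest on average over the 10 arrays stood for it. All 30 passed the filter on low values, which kept 8702 genes, with every array of every member above the intensity floor of 4.66 log2 units. AspRS, MetRS and AlaRS-m had no single-gene probe set and were not analysed here. The subunit genes alpha-PheRS and beta-PheRS carry a prefix that the naming rule leaves out, and are described with the related genes.

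Discs were pooled, 20 to 30 per sample, from larvae at 96 h after egg laying, and each of 5 genotypes had 2 biological replicates. All genotypes carried the driver ey-Gal4, which follows the eyeless gene of the eye primordium, so disc cells outside its domain may not have expressed a transgene. The COX7a RNAi discs were ey-Gal4/UAS-COX7a-RNAi and rest on 1 hairpin line, v106661. The Delta with COX7a RNAi discs were ey-Gal4, UAS-Delta over the same hairpin, and so also overexpressed Delta, a ligand of the Notch receptor. The Delta discs were ey-Gal4, UAS-Delta over UAS-GFP. The Notch intra discs were ey-Gal4/UAS-Notch[intra2], with an intracellular form of the receptor. The control discs were ey-Gal4/UAS-GFP. The hairpin targets the transcript of a subunit of cytochrome c oxidase, the last complex of the respiratory chain.

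An aminoacyl-tRNA synthetase joins 1 amino acid to its tRNAs at the cost of ATP, and so supplies ribosomes with charged tRNA. The cytosolic enzymes serve the ribosomes that translate nuclear genes, while the mitochondrial enzymes are also encoded in the nucleus, are imported, and serve the ribosomes that make the few respiratory chain subunits encoded by mitochondrial DNA. In mammals the transcription factor ATF4, called crc in flies, raises the transcription of many cytosolic synthetase genes when amino acids run short or mitochondria are impaired. Also in mammals, several cytosolic synthetases sit with the scaffold proteins AIMP1, AIMP2 and AIMP3 in a multi-synthetase complex.

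Values are RMA intensities on the log2 scale, in which 1 unit is a doubling, and changes were taken only between arrays for the same gene. Fold changes are log2 differences, each ± its standard error in limma (n = 2 arrays in each genotype), and calls required a p under 0.05 after Benjamini-Hochberg adjustment over the 8702 genes. Across genes, the replicate arrays had a Pearson's r of 0.995 to 0.997. COX7A stood at 10.50 and 10.54 with COX7a RNAi, against 13.41 and 13.32 with GFP, and at 10.88 and 11.20 with Delta and COX7a RNAi, against 13.21 and 13.29 with Delta. Of 9 listed eye-antenna disc markers 8 had a probe set, and 7 were above the floor on every array. The eighth, the antennal gene ss, was at 4.09 and 3.93, under the floor, in Notch intra. The samples are bulk RNA, so fewer cells of a type and less RNA per cell cannot be told apart. The normalization also removes any change shared by most genes.

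The 2 classes differed in how their levels were spread over the 10 arrays. The median cytosolic synthetase lay 0.37 and 0.37 log2 units above its GFP mean on the COX7a RNAi arrays, and 0.40 and 0.29 above it on the arrays of Delta with COX7a RNAi. It lay at 0.03 and 0.00 on the Delta arrays and within 0.01 of the GFP mean on both Notch intra arrays, while the GFP arrays themselves were at 0.02 and -0.02. The 4 arrays with the hairpin thus stood apart from the other 6, with no overlap of the class medians. The median mitochondrial synthetase was at 0.15 and 0.12 with COX7a RNAi, at 0.13 and 0.07 in discs with both transgenes, at 0.07 and 0.09 with Delta, and at 0.10 and 0.06 with Notch intra, against 0.01 and -0.01 with GFP. For this class all 4 genotypes lay above GFP. The COX7a RNAi medians were above those of Delta and of Notch intra, and overlapped only those of discs with both transgenes. The median of all 8702 genes stayed between 0.00 and 0.03 on every array.

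**Figure D1:**
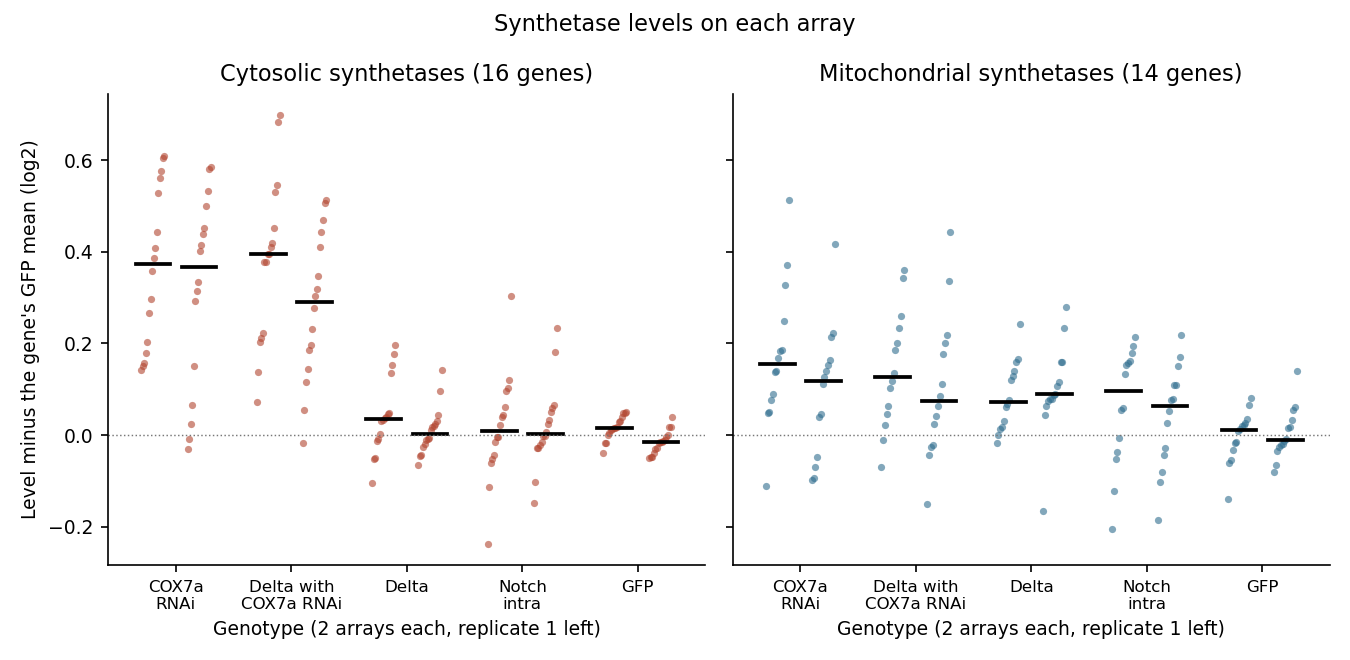
Level of each synthetase on each array minus the mean of that gene over the GFP arrays, in log2 units, for the 16 cytosolic genes (left) and the 14 mitochondrial genes (right). Each point is 1 gene on 1 array and each bar is the class median on that array; the cytosolic medians are 0.29 to 0.40 on the 4 arrays with the COX7a hairpin and at most 0.03 on the other 6.

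COX7a RNAi was set against GFP to ask what loss of COX7a does in discs with no Notch transgene. Of the 16 cytosolic synthetases 11 rose, none fell and 5 were not called, with a median log2 fold change of 0.37 and a range of 0.06 to 0.59. Of the 14 mitochondrial synthetases 1 rose, none fell and 13 were not called, with a median of 0.10 and a range of -0.08 to 0.39. Over all genes tested 3.05% were called higher and 1.48% lower, and the median was 0.00. The cytosolic count lies above that background share. The difference between the classes was not tested as such.

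AsnRS, which charges asparagine, changed most. It stood at 11.56 and 11.53 with COX7a RNAi, against 10.97 and 10.94 with GFP, a difference of 0.59 ± 0.06 or 1.51-fold (limma adjusted p = 0.00156). TrpRS, the tryptophan enzyme, was at 11.11 and 11.17 with COX7a RNAi, against 10.54 and 10.62 with GFP (0.56 ± 0.04, adjusted p = 0.000362). In each gene the hairpin arrays lay close together and clear of GFP. Its other 2 probe sets gave TrpRS a difference of 0.59 ± 0.06 and 0.78 ± 0.16.

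LeuRS, the leucine enzyme, was at 10.55 and 10.44 with COX7a RNAi, against 9.99 and 9.89 with GFP (0.55 ± 0.08, adjusted p = 0.00611). ValRS, the valine enzyme, was at 10.71 and 10.66 with COX7a RNAi, against 10.16 and 10.10 with GFP (0.55 ± 0.06, adjusted p = 0.0016). Neither gene's arrays overlapped those of GFP, and the 4 changes differed from one another by less than their errors.

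HisRS (0.48 ± 0.06), CysRS (0.45 ± 0.04), SerRS (0.42 ± 0.04) and ThrRS (0.40 ± 0.06) followed, which charge histidine, cysteine, serine and threonine. AlaRS (0.35 ± 0.06), GlyRS (0.29 ± 0.05) and IleRS (0.29 ± 0.06), for alanine, glycine and isoleucine, had the smallest called changes, with adjusted p between 0.0105 and 0.0297. In humans the glycine and the lysine enzyme each serve both compartments from 1 gene. No member with the suffix -m charges glycine, lysine, histidine or threonine, and whether these fly genes serve both compartments was not tested. The 5 cytosolic genes that did not pass were GluProRS (0.15 ± 0.05), a fused enzyme for glutamate and proline, TyrRS (0.12 ± 0.05), LysRS (0.11 ± 0.07), GlnRS (0.07 ± 0.06) and ArgRS (0.06 ± 0.07). The 95% intervals of all 5, such as -0.09 to 0.22 for ArgRS and -0.06 to 0.19 for GlnRS, end below every called cytosolic estimate. They still overlap the interval of IleRS, 0.16 to 0.42. The COX7a RNAi arrays lay above the GFP arrays without overlap in 13 of the 16 cytosolic genes, against 24.6% of all genes.

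The uncalled genes were mostly those of 1 list. Of the 8 synthetases listed for the multi-synthetase complex of mammals 6 were measured, and 2 of these rose, LeuRS and IleRS, with a median over the 6 of 0.13. The other 4 are GluProRS, LysRS, GlnRS and ArgRS. Of the 10 cytosolic synthetases outside the list 9 rose, all but TyrRS, with a median of 0.44. The split by catalytic fold looked different, since 5 of 8 class I enzymes and 6 of 7 class II enzymes rose, with medians of 0.37 and 0.40. No test was made of either split.

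Among the mitochondrial synthetases GluRS-m, the glutamate enzyme, was called. It stood at 7.64 and 7.68 with COX7a RNAi, against 7.35 and 7.19 with GFP (0.39 ± 0.08, adjusted p = 0.0344). LeuRS-m was at 9.50 and 9.20 with COX7a RNAi, against 8.93 and 9.05 with GFP (0.36 ± 0.10, adjusted p = 0.105). Its arrays did not overlap, but its hairpin replicates differed by 0.30, the widest gap between replicates of any synthetase. AspRS-m followed with 0.25 ± 0.07 (adjusted p = 0.106), and the lowest values were those of AsnRS-m (-0.01 ± 0.06) and SerRS-m (-0.08 ± 0.05).

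The mitochondrial genes were measured at lower signal and with somewhat more scatter. Their mean levels over the 10 arrays ran from 7.31 to 9.67, against 10.05 to 12.14 for the cytosolic genes. Class and signal level thus cannot be told apart here, and the part of signal level in the class difference was not tested. The median standard error of a fold change was 0.08 in this class, against 0.06 for the cytosolic genes and 0.08 for all genes. In 8 of the 14 the COX7a RNAi arrays lay above GFP without overlap, and in 1, SerRS-m, below it, where 22.9% of all genes lay below.

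**Figure D2:**
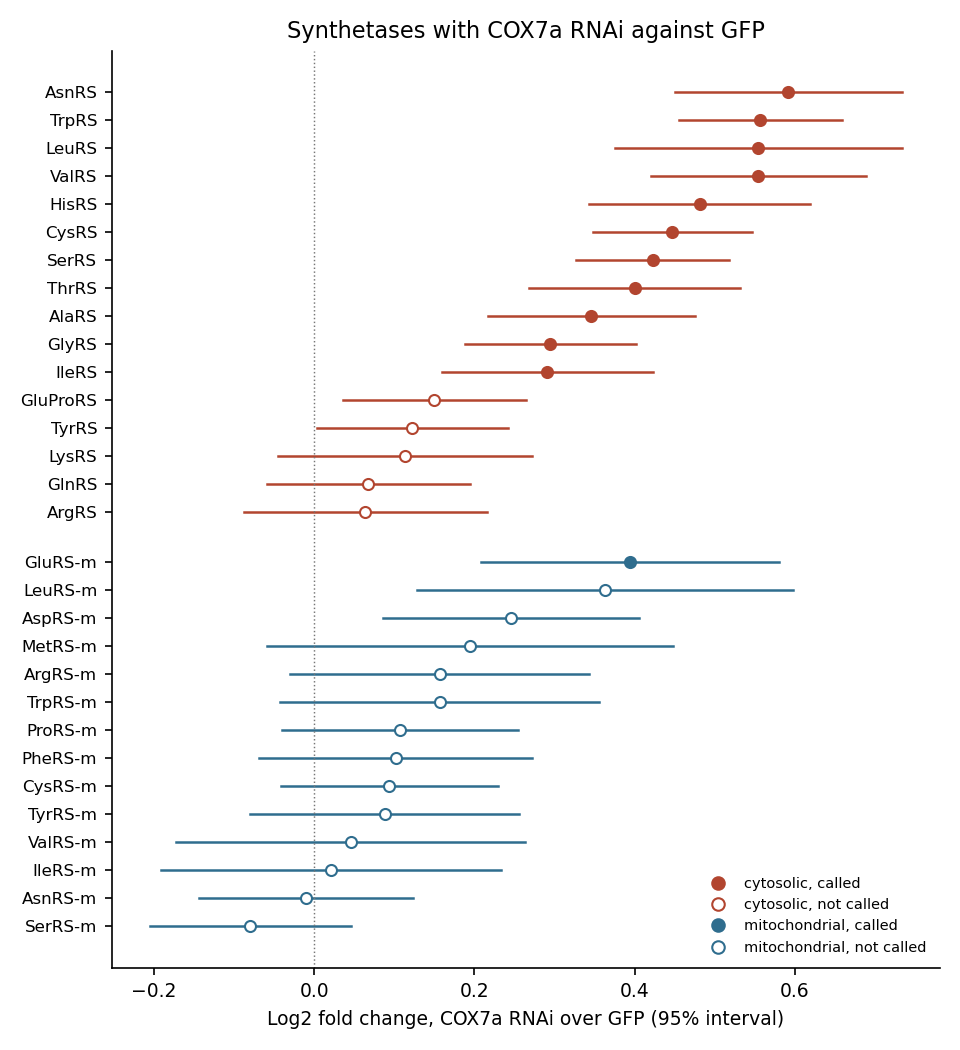
Log2 fold change of each synthetase with COX7a RNAi over GFP, with its 95% interval from limma (2 arrays per genotype); filled points were called at an adjusted p under 0.05. The 11 called cytosolic genes run from 0.29 to 0.59, and GluRS-m at 0.39 is the called mitochondrial gene.

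Some of these calls rested on single arrays. The cytosolic count was 7 without GFP replicate 2, and LeuRS (adjusted p = 0.059) and GlyRS (0.0956) were among those lost then, GlyRS also when the compared genotypes were fitted alone. The AlaRS call ended without either GFP array or COX7a RNAi replicate 1 (up to 0.103), and that of ThrRS without GFP replicate 1 (0.0702). IleRS was lost without either replicate of GFP, COX7a RNAi or Delta (up to 0.194), with eBayes without a trend, and in the fit of the compared genotypes alone. GluRS-m was lost without any 1 array except those of Delta with COX7a RNAi (up to 0.221) and under 3 other settings. AsnRS, CysRS, HisRS, SerRS, TrpRS and ValRS were called in each of the 19 alternative fits.

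Some markers of other cell types also differed between COX7a RNAi and GFP. Tracheal markers, of which 4 of 5 were measured, were lower in 2 of 4 cases with COX7a RNAi (serp -0.44 and Gasp -0.31), and their summed linear intensity was 12450 to 13090 with COX7a RNAi, against 16010 to 16640 with GFP. The summed intensity of 5 measured muscle markers was 1547 to 1889 with COX7a RNAi, against 1969 to 2381 with GFP, with 0 of the 5 called by limma and 0 at an unadjusted p under 0.05. That of the neurosecretory genes Akh and sNPF was 275 to 424 with COX7a RNAi, against 60.8 to 77.8 with GFP, with Akh called higher. In Notch intra the tracheal sum was 7003 to 7788. The part of these cells in the synthetase result was not tested.

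Delta with COX7a RNAi was set against Delta to ask the same question in discs that overexpress the ligand. No array enters both comparisons, although they share 1 estimate of the spread. Again 11 of 16 cytosolic synthetases rose and none fell, with a median of 0.35, against 2.18% of all genes called higher, 1.56% called lower and a median of -0.01. They were the same 11 genes, which is 100% of either list, whereas the 115 genes of the whole table called higher in both were 43.4% of the first list and 60.5% of the second. None of the 14 mitochondrial synthetases was called by limma, 1 had an unadjusted p under 0.05 (GluRS-m, 0.31 ± 0.08, adjusted p = 0.0888), and the median was 0.01.

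AsnRS was at 11.65 and 11.47 with Delta and COX7a RNAi, against 10.99 and 10.94 with Delta, and the difference of 0.59 ± 0.06 matched that in the GFP background (adjusted p = 0.00158). ValRS was at 10.68 and 10.54 with Delta and COX7a RNAi, against 10.03 and 10.11 with Delta (0.54 ± 0.06, adjusted p = 0.00177). The arrays of these genes did not overlap, nor did those of 14 of the 16 cytosolic genes in all, each higher with the hairpin, against 20.4% of all genes. LeuRS rose by 0.49 ± 0.08, HisRS by 0.42 ± 0.06 and TrpRS by 0.35 ± 0.04.

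TyrRS, not called in either background, had 0.19 ± 0.05 here (adjusted p = 0.099). ArgRS (0.02 ± 0.07) and GlnRS (-0.01 ± 0.06) were again near 0. Within the complex list 2 of 6 rose, with a median of 0.11, and outside it 9 of 10, with a median of 0.36. Across the 16 cytosolic genes the fold changes of the 2 comparisons correlated at Pearson's r = 0.926 (Spearman's rho = 0.838), and across the 14 mitochondrial genes at r = 0.78 (rho = 0.574). These correlations are across genes, which share arrays and are not independent replicates.

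**Figure D3:**
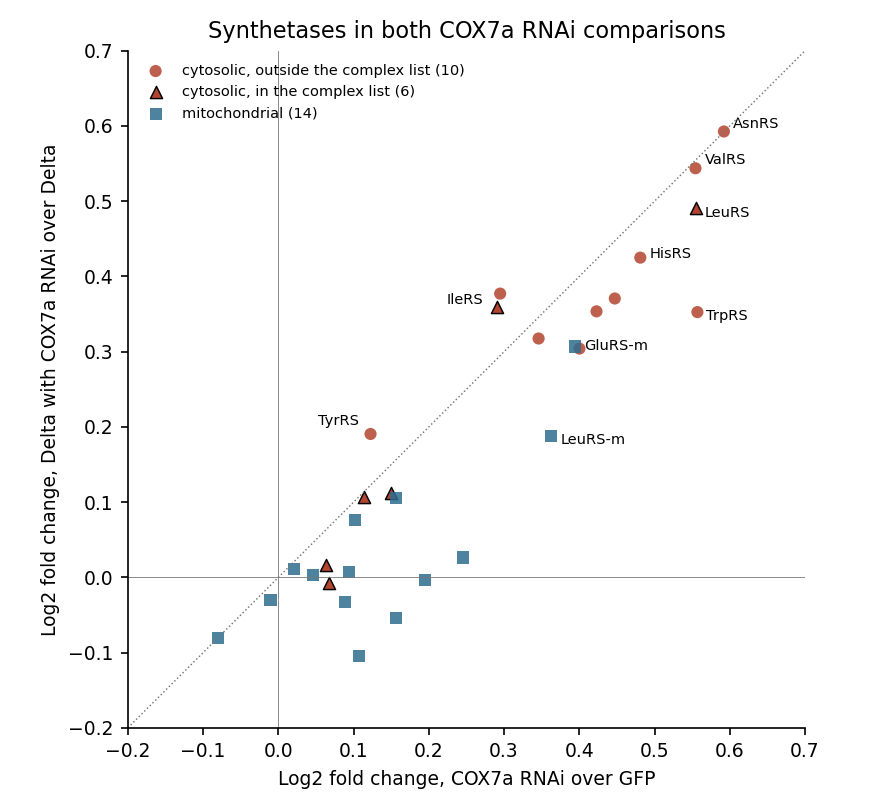
Log2 fold change of each synthetase with COX7a RNAi over GFP (horizontal) and with Delta and COX7a RNAi over Delta (vertical), with the dotted line marking equal change. Circles are the 10 cytosolic genes outside the multi-synthetase complex list, triangles the 6 within it and squares the 14 mitochondrial genes; AsnRS lies at 0.59 on both axes, and 4 of the triangles lie under 0.2 on both.

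Some calls in this comparison also rested on single arrays. The cytosolic count was 6 without Delta replicate 2 and 7 without Delta with COX7a RNAi replicate 1, and 5 when the 4 compared arrays were fitted alone. Without an intensity trend AlaRS and ThrRS were lost. Leaving out an array lost ThrRS (adjusted p up to 0.186; without either replicate of GFP, Delta or Notch intra, or replicate 1 of Delta with COX7a RNAi), AlaRS (0.13) and IleRS (0.0887; both without either Delta replicate or replicate 1 of Delta with COX7a RNAi), LeuRS (0.0929; without Delta replicate 2 or Delta with COX7a RNAi replicate 1) and HisRS (0.0647; without Delta replicate 2). Tracheal sums were 12290 to 13590 with Delta and COX7a RNAi, against 14190 to 15300 with Delta, with 0 of 4 markers called by limma and 2 at an unadjusted p under 0.05. The summed intensity of the 5 glial markers was 9125 to 9801 with Delta and COX7a RNAi, against 10200 to 10520 with Delta. That sum rests mostly on Gli and nrv2, at means of 12.67 and 11.21 with both transgenes, where repo was at 8.02. Of the 4 tested, nrv2 was called lower by limma (-0.30, adjusted p = 0.0278). The others were not called, and moody went the other way, with a mean of 8.27 with both transgenes, against 8.12 with Delta. The Akh and sNPF sum was 63.6 to 73.9 with Delta and COX7a RNAi, against 283 to 389 with Delta, with sNPF called lower. Their part in the result was not tested.

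Whether the hairpin acted differently in the Delta background was tested by the interaction, the change against Delta minus the change against GFP. No synthetase was called by limma, against 0.575% of all genes. At an unadjusted p under 0.05 were TrpRS (-0.20 ± 0.06, adjusted p = 0.298) and ProRS-m (-0.21 ± 0.09, also not called). The cytosolic median was -0.04, with 12 of 16 below 0. The mitochondrial median was -0.09, with 14 of 14 below 0, where 54.3% of all genes were below 0 with a median of -0.01. For AsnRS the 95% interval of the interaction ran from -0.20 to 0.20, and for ValRS from -0.20 to 0.18. For GluRS-m it ran from -0.35 to 0.18, so that differences up to those bounds cannot be told from none.

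Delta alone and Notch intra, each set against GFP, ask what gain of Notch function does. With Delta no synthetase of either class was called by limma, against 2.38% of all genes. The cytosolic median was 0.00 and the mitochondrial median 0.08, with 13 of 14 mitochondrial values above 0, against 58.4% and a median of 0.02 for all genes. TrpRS (0.15 ± 0.04, adjusted p = 0.164) and ProRS-m (0.26 ± 0.06, adjusted p = 0.0929) were at an unadjusted p under 0.05. The Delta arrays lay above GFP without overlap in 4 of 16 cytosolic and 9 of 14 mitochondrial genes, against 32.5% of all genes. For AsnRS the 95% interval was -0.13 to 0.16, and for ValRS -0.20 to 0.07.

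With Notch intra, in which 13.1% of all genes were called, again no synthetase was called by limma. The cytosolic median was 0.00 and the mitochondrial median 0.09, against 0.03 for all genes. The Notch intra arrays lay above GFP without overlap in 6 and below it in 4 of the 16 cytosolic genes, against 36.9% and 26.5% of all genes. LeuRS was at 10.24 and 10.17 with Notch intra, against 9.99 and 9.89 with GFP (0.27 ± 0.08, adjusted p = 0.0588). AsnRS was at 10.72 and 10.80 with Notch intra, against 10.97 and 10.94 with GFP (-0.19 ± 0.06, adjusted p = 0.0805). ProRS-m (0.22 ± 0.06, adjusted p = 0.0633) and AsnRS-m (0.17 ± 0.06, adjusted p = 0.102) were the other 2 synthetases at an unadjusted p under 0.05. AsnRS and LeuRS, both among the leading genes with COX7a RNAi, thus had opposite signs with Notch intra, and neither passed the test. Of 8 disc markers 2 were called higher and 3 lower with Notch intra against GFP, from -3.95 for ss to 0.40 for toy. Markers of other tissues called lower were 2 of 5 for muscle, 2 of 4 for trachea and 2 of 4 for glia. Of 4 blood cell markers 1 was called higher, as was Akh. The part of these cells in the synthetase values was not tested.

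Against GFP, Delta with COX7a RNAi raised 11 cytosolic synthetases and GluRS-m, with medians of 0.34 and 0.11, against 4.61% of all genes called higher. AsnRS differed by 0.61 ± 0.06 and LeuRS by 0.59 ± 0.08, and GluRS-m stood at 7.61 and 7.71 with both transgenes, against 7.35 and 7.19 with GFP (0.39 ± 0.08, adjusted p = 0.0246). In 15 of 16 cytosolic genes the arrays lay above GFP without overlap, against 29.1% of all genes. This comparison shares its GFP arrays with that of COX7a RNAi, and its hairpin arrays with that against Delta. Leaving out an array lost AlaRS and ThrRS (adjusted p up to 0.129; without either GFP replicate), IleRS (0.101; without GFP replicate 2) and GluRS-m (0.194; without GFP replicate 2 or Delta with COX7a RNAi replicate 2). Fitting the compared genotypes alone lost these 4 too, and ThrRS was lost without a trend. Markers called lower in this comparison were 3 of 4 tracheal genes (Gasp -0.27, serp -0.43 and verm -0.49), 3 of 8 eye-antenna disc genes (toy -0.20, so -0.34 and Optix -0.51) and 1 of 4 glial genes (nrv2 -0.26). No gene of these lists was called higher, but 3 of the 8 disc genes (up to 0.40) and 1 of the 4 glial genes (0.10) had positive fold changes. The tracheal sum was 12290 to 13590 with both transgenes, against 16010 to 16640 with GFP, and the disc marker sum was 23690 to 24200 with both transgenes, against 26100 to 26410 with GFP. Their part in the synthetase result was not tested.

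For 9 amino acids both enzymes were measured, which sets the classes side by side within an amino acid. The mitochondrial gene of each pair had the lower signal, so the pairs do not separate class from signal level. With COX7a RNAi against GFP the cytosolic fold change was the higher of the pair in 8 of 9, with a median difference of 0.35 and a range of -0.09 to 0.60. The widest differences were those of asparagine, at 0.60 ± 0.07, and valine, at 0.51 ± 0.09. AsnRS-m was at 8.74 and 8.62 with COX7a RNAi, against 8.71 and 8.67 with GFP. ValRS-m was at 7.92 and 7.64 with COX7a RNAi, against 7.76 and 7.71 with GFP. In both mitochondrial genes the arrays of the genotypes overlapped, while those of the cytosolic partner did not.

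Serine (0.50 ± 0.06), tryptophan (0.40 ± 0.09), cysteine (0.35 ± 0.05) and isoleucine (0.27 ± 0.12) followed. Leucine had 0.19 ± 0.10, with LeuRS-m the mitochondrial member that came nearest to its partner among those whose cytosolic gene rose. Tyrosine (0.03 ± 0.05) and arginine (-0.09 ± 0.11) had no difference beyond their error. With Delta and COX7a RNAi against Delta the cytosolic gene was again the higher in 8 of 9, by a median of 0.36, with arginine at -0.09 ± 0.11 and tyrosine at 0.22 ± 0.05. With Delta against GFP it was the higher in 3 of 9 (median -0.02) and with Notch intra in 4 of 9 (median -0.04). The errors are from the per-array ratio of the 2 genes over all 10 arrays, and no p-value was taken from them.

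**Figure D4:**
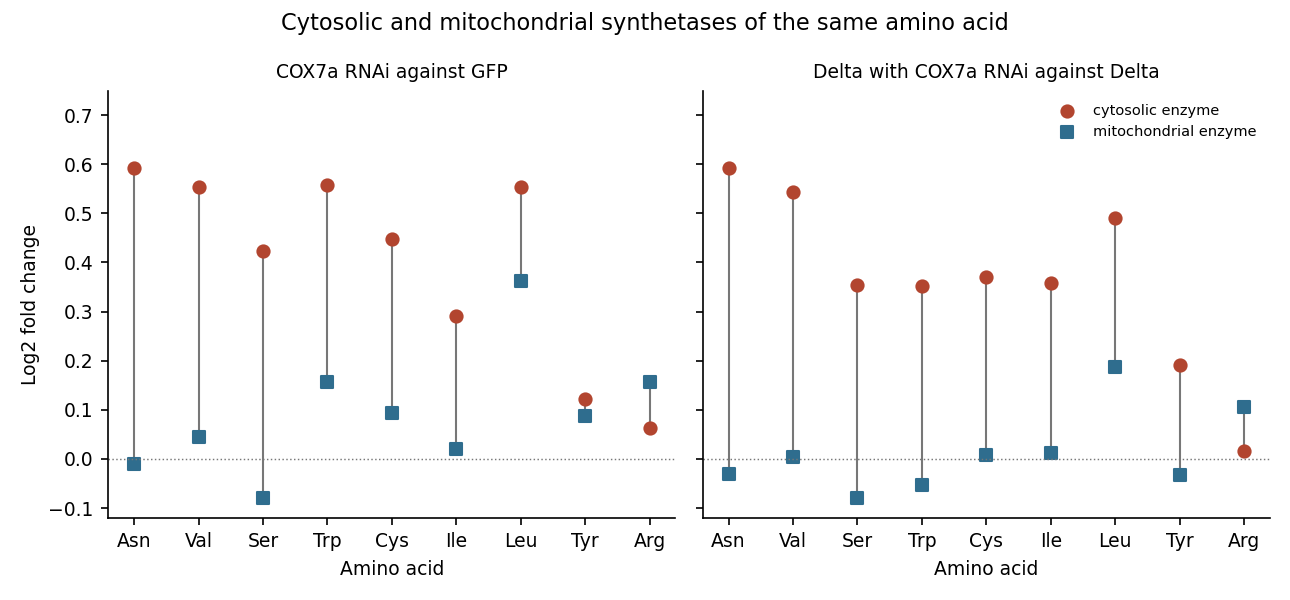
Log2 fold changes of the cytosolic (circles) and mitochondrial (squares) synthetase of the same amino acid, for COX7a RNAi against GFP (left) and Delta with COX7a RNAi against Delta (right). In each panel the cytosolic gene is the higher in 8 of 9 amino acids, and arginine is the exception.

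Genes that work with the synthetases were mostly not called. Of 9 listed genes outside the naming rule 8 were measured, and with COX7a RNAi against GFP 1 rose, AIMP2 (0.20 ± 0.05, adjusted p = 0.0464), a scaffold of the mammalian complex. Its arrays were at 11.81 and 11.77 with COX7a RNAi, against 11.62 and 11.55 with GFP. The AIMP2 call was lost under 6 of 9 other settings and without any array except those of Delta with COX7a RNAi (adjusted p up to 0.293). AIMP2 also rose with Delta and COX7a RNAi against GFP (0.26 ± 0.05), a call lost without GFP replicate 2 or Delta with COX7a RNAi replicate 2 and in the fit of the compared genotypes alone, but was not called against Delta (0.15 ± 0.05, adjusted p = 0.132).

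The subunits of the cytosolic phenylalanine enzyme, alpha-PheRS (0.07 ± 0.05) and beta-PheRS (0.12 ± 0.04, adjusted p = 0.193), were not called with COX7a RNAi. Slimp, a paralog of the mitochondrial serine enzyme, had 0.03 ± 0.06, and GatA, which helps form mitochondrial glutaminyl-tRNA, -0.13 ± 0.07. With Notch intra AIMP3 rose by 0.19 ± 0.05 (adjusted p = 0.0496), a call lost under 4 of 9 other settings and in 8 of 10 fits without an array, all but those without Delta with COX7a RNAi.

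Of 7 listed cytosolic elongation factors 4 were measured, and none was called by limma in any comparison, with at most 1 at an unadjusted p under 0.05. With COX7a RNAi against GFP their median was 0.01, with none at an unadjusted p under 0.05 and the widest value that of eEF1alpha2 (0.15 ± 0.21). The GFP means of eEF5, eEF1gamma and eEF1delta were 14.4, 14.3 and 13.2, where the highest deposited value was 14.84. Whether the arrays can show a change at such levels was not tested. Of 12 listed genes of mitochondrial translation 11 were measured, among them bonsai and tko beside the genes of translation factors. With COX7a RNAi against GFP their median was 0.10, with none called by limma and 2 at an unadjusted p under 0.05. The initiation factor gene mIF2 (0.26 ± 0.09 with COX7a RNAi) rose with Notch intra, at 7.68 and 7.54, against 7.19 and 7.21 with GFP (0.41 ± 0.09, adjusted p = 0.0183). That call was lost without either GFP replicate or Notch intra replicate 1 (adjusted p up to 0.12).

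In the list of the amino acid stress response, to which ATF4 belongs, 14 of 17 genes were measured. With COX7a RNAi against GFP 4 of the 14 rose, with a median of 0.14, against 3.05% of all genes called higher. The asparagine synthetase gene AsnS, which makes the amino acid that AsnRS charges, was at 8.07 and 8.70 with COX7a RNAi, against 7.09 and 7.05 with GFP (1.31 ± 0.18, adjusted p = 0.00554). Its COX7a RNAi replicates lay far apart but clear of GFP, and the call ended when the compared genotypes were fitted alone (0.0656). The amino acid transporter gene path (2.98 ± 0.12), Gadd45 (1.48 ± 0.32) and the one-carbon enzyme gene Nmdmc (0.69 ± 0.08) were the other 3. The same 4 rose with Delta and COX7a RNAi against Delta, AsnS by 1.01 ± 0.18, path by 1.65 ± 0.12, Gadd45 by 1.55 ± 0.32 and Nmdmc by 0.47 ± 0.08. In that comparison 2.18% of all genes were called higher.

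The Gadd45 calls were lost in 7 of 10 fits without an array in each of these comparisons, including those without any array of the genotypes compared except replicate 1 of COX7a RNAi and replicate 2 of Delta with COX7a RNAi. They were also lost under 4 of 9 other settings, among them the replicate number as a block and the compared genotypes alone (adjusted p up to 0.0994 against GFP and 0.0795 against Delta). Against Delta, the AsnS call was lost without either Delta replicate or Delta with COX7a RNAi replicate 1 (adjusted p up to 0.122), and the Nmdmc call without Delta replicate 2 or either replicate of Delta with COX7a RNAi (up to 0.0962) and in the fit of the compared genotypes alone (0.0583). Transcripts of crc itself were not called in either background (0.13 ± 0.08 against GFP and 0.32 ± 0.08, adjusted p = 0.0693, against Delta). Nor were those of the kinase genes Gcn2 and PEK, whose products act upstream of ATF4. Against GFP, Gcn2 had 0.07 ± 0.06 and PEK 0.31 ± 0.08 (limma adjusted p = 0.0736). AsnS fell with Notch intra, at 6.12 and 6.08, against 7.09 and 7.05 with GFP (-0.97 ± 0.18, adjusted p = 0.00935), the comparison in which AsnRS had its lowest value, and that call was lost without any 1 of the 4 arrays compared (adjusted p up to 0.0633). Delta alone left AsnS at 6.55 and 6.52 (-0.54 ± 0.18, adjusted p = 0.211). With Delta and COX7a RNAi the mean of AsnS was 7.54, against 7.07 with GFP and 6.54 with Delta. In that comparison with GFP 3 genes of the list were called higher, against 4.61% of all genes, and AsnS was not among them.

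By a gene table built on the assembly Release 6 plus ISO1 MT, 15 of the 30 synthetase genes overlap another gene, and 4 of the 12 called in any comparison do so, namely CysRS, HisRS, SerRS and GluRS-m. Which strand and part of a gene each probe reads was not used here, so for these a share of the signal may belong to the neighbour. Of their partners, Serinc (0.04 ± 0.06), which overlaps GluRS-m, and CG17260 (0.07 ± 0.09), which overlaps SerRS, were measured with COX7a RNAi against GFP and were not called. GluRS-m and TyrRS are neighbours in that table. The probe sets of IleRS, ValRS and ThrRS have the suffix that marks probes shared by several transcripts, which can be those of different genes.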

How the data were processed

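The authors deposited log2 values, 1 for each array and probe set. The submitters' processing notes name RMA, Transcriptome Analysis Console 3.0.0.466 and Affymetrix Expression Console, without their roles. The genome build is not given in the sources used here. RMA includes quantile normalization. The members, lists and alternatives were chosen with earlier results of these data known.

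Of 18952 probe sets 183 controls were left out. Of the rest, 13647 had 1 gene symbol, 402 several and 4720 none, and only the first were used, 1 per gene with the highest mean. A gene was tested if 2 arrays exceeded the 40th percentile of all values. All 30 synthetases matched the gene table by gene identifier with the same symbol. In the lists 2 older symbols were updated.

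limma 3.58.1 in R 4.3.3 fitted 1 mean per genotype over 10 arrays (5 residual degrees of freedom) with eBayes and an intensity trend, for 6 comparisons, two-sided. The fit was tested on simulated data. Every member may be named. Array values are given for the 4 cytosolic and 2 mitochondrial genes that changed most with COX7a RNAi, up to 2 per class in other comparisons with a call, and the 2 amino acid pairs that differed most. Called genes of the lists are named, with others as values. Replicate numbers were not used to pair the samples in the main fit. No scan dates or detection calls were used. The number of arrays limits the precision.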

Additional observations from a re-analysis of the deposited data

Results flagged for a closer look

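The amino acid transporter gene path, in the list of the amino acid stress response, differed in its response to COX7a RNAi between the backgrounds by the interaction test (-1.34 ± 0.17, limma adjusted p = 0.016). It was higher with COX7a RNAi by 1.65 in the Delta background and by 2.98 in the GFP background. The gene was itself called higher with Delta alone against GFP (0.82 ± 0.12, adjusted p = 0.0114), a call lost without GFP replicate 1 or Delta replicate 1 (up to 0.104). Its mean level was 11.85 with Delta and COX7a RNAi, against 10.21 with Delta, and 12.37 with COX7a RNAi, against 9.39 with GFP. The call was lost without Delta replicate 1 or either replicate of Delta with COX7a RNAi (adjusted p up to 0.069). No synthetase met that test.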

How the results depend on the processing

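With 2 arrays per genotype, the calls of synthetases rest on a spread estimated jointly from the 5 genotypes. Of 315 refits of called synthetases under the 9 other settings 296 kept the call and 19 lost it, and of 350 refits without 1 array 307 kept it and 43 lost it, with no change of sign. Without 1 array, the cytosolic count was 7 to 12 with COX7a RNAi against GFP, 6 to 12 with Delta and COX7a RNAi against Delta, 8 to 12 with both transgenes against GFP and 0 to 2 with Notch intra. The mitochondrial count was 0 to 1 with COX7a RNAi and with both transgenes against GFP. All other counts stayed at 0. Fitting the compared genotypes alone gave 5 cytosolic calls with Delta and COX7a RNAi against Delta, 2 with Notch intra (1 of them higher), and 0 mitochondrial calls with COX7a RNAi and with both transgenes against GFP. The replicate number as a block gave 0 mitochondrial calls with COX7a RNAi and 1 cytosolic call with Notch intra. Deviations of same-numbered arrays correlated at -0.225 to 0.376 over 10 pairs of genotypes, 2 of them over 0.1. The highest was between COX7a RNAi and Delta with COX7a RNAi, the 2 genotypes with the hairpin. Centring arrays on their median gave 0 mitochondrial calls with COX7a RNAi, and 1 cytosolic and 1 mitochondrial call with Notch intra. A floor at the 60th percentile gave 1 cytosolic and 1 mitochondrial call with Notch intra, and eBayes without a trend 1 mitochondrial call there. The causes were not tested. The class medians moved by less than the median residual SD of 0.0798 under every alternative. With COX7a RNAi against GFP they ran from 0.37 to 0.37 for the cytosolic and 0.09 to 0.15 for the mitochondrial genes. With Delta and COX7a RNAi against Delta the cytosolic median ran from 0.30 to 0.40. That of the interaction ran from -0.10 to 0.03, so its sign was not stable.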
